A study of Mus musculus with 4 samples.

Results

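The 10 genes of cholesterol export and of the liver X receptors (LXRs) followed here were measured in RNA-seq libraries from colonies of mouse blood progenitors: Nr1h3, Nr1h2, Abca1, Abcg1, Apoe, Pltp, Lpl, Mylip, Lpcat3 and Soat1. They were taken by symbol, and all 10 were found among the 14323 genes listed in the table. Short-term haematopoietic stem cells (ST-HSCs), which rebuild blood for a limited time, and MPP2 cells, multipotent progenitors that lean toward platelets and red cells, came from C57BL/6 mice of a model strain whose alleles the labels do not name. Cultures of 100 cells grew for 5 to 7 days in 1% methylcellulose with SCF at 25 ng/ml and IL-6, IL-3 and GM-CSF at 10 ng/ml each. Cultures given 0.05 µM 4-hydroxytamoxifen (4OHT), a drug used to switch genes on in engineered cells, were labelled as expressing MLL-ENL, a leukaemia fusion gene, and those with ethanol alone as controls. Each of the 4 groups (ST-HSC with ethanol, ST-HSC with 4OHT, MPP2 with ethanol, MPP2 with 4OHT) had 1 library. No control culture was labelled as receiving 4OHT without the fusion, so an effect of the drug and an effect of MLL-ENL cannot be told apart.

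LXR alpha (Nr1h3) and LXR beta (Nr1h2) are nuclear receptors that sense oxysterols, oxidised forms of cholesterol, and bind DNA as pairs with a retinoid X receptor. Their target genes move cholesterol out of the cell: Abca1 and Abcg1 encode the pumps, Apoe and Pltp encode an acceptor protein and a lipid transfer protein, and Mylip encodes a ubiquitin ligase that limits cholesterol uptake. In macrophages this pathway is known for clearing the cholesterol taken up with dead cells, and in blood stem and progenitor cells ABCA1 and ABCG1 are known to restrain proliferation by draining membrane cholesterol.

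LXR pairs bind direct repeats of a short element spaced by 4 bases (DR4). The start-site windows of Abca1, Mylip and Nr1h3 are shown because these genes carried the largest differences described further on. Each runs from 250 bases before the start to 50 after it, on the gene's strand (RefSeq, GRCm38.p6). Abca1 is at chr4:53159846-53160145 and Nr1h3 at chr2:91195067-91195366, both on the minus strand, and Mylip is at chr13:45389492-45389791 on the plus strand. Nr1h3 had another window, at chr2:91194986-91195285, which is not shown. The Nr1h3 windows lie inside its annotated span (91184061 to 91202834) and not at the start of that span. Capitals mark a relaxed DR4 match, an E-box (CACGTG) or a TATA box (TATAAA).
Abca1: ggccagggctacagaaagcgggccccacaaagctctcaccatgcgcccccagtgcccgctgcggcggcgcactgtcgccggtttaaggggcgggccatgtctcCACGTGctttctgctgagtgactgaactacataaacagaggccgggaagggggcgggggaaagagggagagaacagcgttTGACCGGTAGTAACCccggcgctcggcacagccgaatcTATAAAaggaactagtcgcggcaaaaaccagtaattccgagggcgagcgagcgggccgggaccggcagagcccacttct
Mylip: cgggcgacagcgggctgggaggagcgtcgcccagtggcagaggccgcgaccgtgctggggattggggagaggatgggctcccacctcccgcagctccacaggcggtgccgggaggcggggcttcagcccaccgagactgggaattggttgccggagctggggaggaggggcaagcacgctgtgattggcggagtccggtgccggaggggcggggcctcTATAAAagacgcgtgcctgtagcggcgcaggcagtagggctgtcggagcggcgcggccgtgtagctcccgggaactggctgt
Nr1h3: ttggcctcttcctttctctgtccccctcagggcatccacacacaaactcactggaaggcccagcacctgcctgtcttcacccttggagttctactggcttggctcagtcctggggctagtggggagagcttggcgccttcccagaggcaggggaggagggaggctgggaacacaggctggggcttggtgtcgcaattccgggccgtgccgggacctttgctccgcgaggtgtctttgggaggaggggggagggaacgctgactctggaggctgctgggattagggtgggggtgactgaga
The consensus repeat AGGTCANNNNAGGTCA, searched on both strands, was in 0 of the 11 windows of the 8 genes with an entry and in 0.0152% of all 32851 windows. A relaxed form, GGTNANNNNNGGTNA, was chosen after the Abca1 window had been read. It was in 1 of those 11 windows, that of Abca1, and in 0.718% of all windows. The Abca1 match lay 67 to 53 bases before the start and overlapped neither the E-box, 147 to 142 bases before it, nor the TATA box, 29 to 24 bases before it. Of all windows, 7.15% held the E-box and 13.6% the TATA box letters, which among the genes described here were also in windows of Apoe, Mylip and Pltp. Among 16 windows of 12 other LXR target genes, 3 held the relaxed form: those of Srebf1 (the SREBP-1 transcription factor of lipid synthesis), Fasn (fatty acid synthase) and Acsl3 (which activates fatty acids). The matches are shown side by side, read in the direction GGTNA, with the matched repeats in capitals. The 5 bases in lower case are the 4-base spacer and the first base of the second element, which the relaxed form leaves free.
Abca1: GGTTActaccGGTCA
Fasn: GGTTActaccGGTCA
Acsl3: GGTTActatgGGTCA
Srebf1: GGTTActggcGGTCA
All 4 shared the repeats GGTTA and GGTCA, and Abca1 and Fasn also shared the bases between them. These letters are a description and not evidence of binding. Abcg1 and Lpl had no entry among the windows.

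The libraries held 12907412 to 14317891 recovered reads. Levels are normalized counts, in which 1 read was worth 0.0695 to 0.0802. Myeloid genes stood far above stem cell genes. The 12 neutrophil genes summed to between 25893 and 45862 normalized counts and 13 monocyte and macrophage genes to between 2311 and 4401. The 10 stem and progenitor genes summed to between 132 and 203. Among them Slamf1 had 0 reads in both ST-HSC libraries, and 44 and 31 in MPP2 with ethanol and with 4OHT. Kit, which is also in the mast cell list, had 76.4 and 92.9 normalized counts in ST-HSC cultures (ethanol, then 4OHT) and 84.1 and 90.5 in MPP2 cultures. Mast cell and basophil genes summed to 236 and 181 in ST-HSC cultures (ethanol, then 4OHT) and to 1781 and 658 in MPP2 cultures. Erythroid genes summed to 2.85, 1.72, 150.1 and 16.9 in the same order. A count per gene symbol does not separate the fusion from its parent genes, so the labels for its induction were not checked.

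Nr1h3, which encodes LXR alpha (chromosome 2, 91184061 to 91202834, minus strand, GRCm38), had the largest 4OHT difference of the 10 genes in both cell types. ST-HSC cultures had 1.88 normalized counts without and 4.74 with the drug, and MPP2 cultures 2.38 without and 4.57 with it. Both 4OHT libraries were above both ethanol libraries. The 4OHT to ethanol ratio was 2.53 in ST-HSC cultures (95% counting interval 1.59 to 4.11, 27 and 66 reads) and 1.92 in MPP2 cultures (1.23 to 3.04, 33 and 57 reads). In ST-HSC cultures this was the only one of the 9 genes tested that was at least 2-fold higher in log2 values, where 2.1% of all genes tested were. None of the 9 was at least 2-fold lower there, against 0.545% of all. In MPP2 cultures 0 of 9 passed 2-fold in either direction, against 1.32% higher and 1.7% lower of all. The 95% intervals of ratios come from an exact binomial method applied to the reads of both libraries. They cover counting error alone and not the variation between cultures.

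Nr1h2, which encodes the second receptor, LXR beta, stood at 61.7 and 59.1 normalized counts in ST-HSC cultures and at 74.8 and 85.1 in MPP2 cultures (ethanol, then 4OHT). The 4OHT library was lower in one cell type and higher in the other, and the ratios were 0.958 (0.87 to 1.05) and 1.14 (1.04 to 1.24). With a GC trend removed the MPP2 difference went from log2 0.18 to -0.01. Per kilobase of exon, the level of Nr1h2 was 35.2 times that of Nr1h3 in ST-HSC with ethanol and 13.3 times with 4OHT. In MPP2 cultures the same ratio of levels per kilobase was 33.7 with ethanol and 19.9 with 4OHT. LXR beta RNA was thus the more abundant of the receptor pair in all 4 libraries, by the smaller factor under 4OHT.

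**Figure D1:**
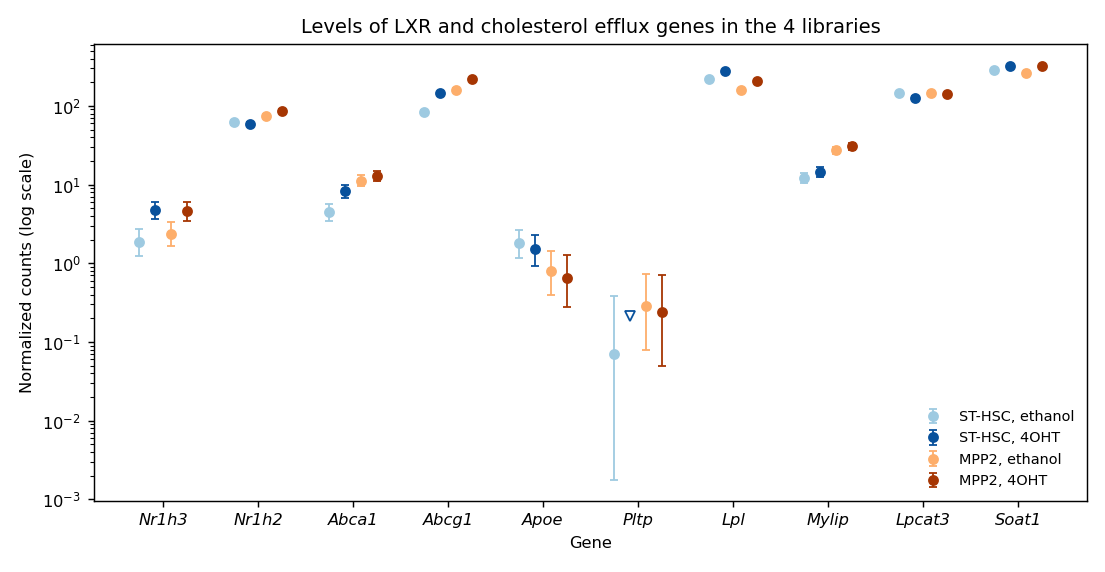
Normalized counts (log axis) of the 10 genes in the 4 libraries, 1 point per library, with exact 95% Poisson intervals for counting error. The open triangle is the level of 3 reads for Pltp in the ST-HSC 4OHT library, which had 0 reads. Abcg1 climbs from 83.2 in ST-HSC with ethanol to 220.5 in MPP2 with 4OHT, while Lpcat3 stays between 126 and 148.

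The cholesterol pump gene Abca1 (chromosome 4, 53030787 to 53159895, minus strand), which loads cholesterol onto lipid-poor apolipoproteins, had 4.45 and 8.26 normalized counts in ST-HSC cultures (ethanol, then 4OHT) and 11.3 and 12.9 in MPP2 cultures. Both MPP2 libraries were above both ST-HSC libraries, and the 4OHT library was the higher of each pair. Its 4OHT ratio was 1.86 (1.36 to 2.56) in ST-HSC cultures and 1.15 (0.915 to 1.44) in MPP2 cultures. The second pump gene, Abcg1 (chromosome 17, 31057675 to 31117988, plus strand), which passes cholesterol to HDL particles, had 83.2, 145, 159.7 and 220.5 in the same order. The order of the libraries was that of Abca1. Its 4OHT ratio was 1.75 (1.62 to 1.88) in ST-HSC cultures and 1.38 (1.31 to 1.46) in MPP2 cultures. For both pumps the ratio was the larger in ST-HSC cultures, which was not tested because there was 1 library per group. Per kilobase of exon, the level of Abcg1 was 21.3 to 28.1 times that of Abca1 over the 4 libraries.

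Apoe, whose protein accepts exported cholesterol, was scarce. It had 26, 21, 11 and 8 reads (1.81, 1.51, 0.794 and 0.642 normalized counts) in the order just used. Both ST-HSC libraries were above both MPP2 libraries, the reverse of the pumps. Its 4OHT ratios of 0.835 (0.447 to 1.54) and 0.809 (0.282 to 2.21) were within counting error of 1. Pltp, which moves phospholipid between lipoproteins, had 1, 0, 4 and 3 reads. It was the only one of the 10 that did not pass the filter of a mean of 1 normalized count, and no difference was detectable at this depth. Lpl encodes lipoprotein lipase, which frees fatty acids from lipoproteins, and was abundant at 221, 276, 157 and 207 normalized counts. Its 4OHT ratios were 1.25 (1.19 to 1.31) and 1.32 (1.24 to 1.4), and both ST-HSC libraries were above both MPP2 libraries, narrowly so for ST-HSC with ethanol against MPP2 with 4OHT.

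Mylip, the ligase gene (chromosome 13, 45389742 to 45412022, plus strand), separated the cell types rather than the treatments. It had 12.2 and 14.6 normalized counts in ST-HSC cultures and 27.4 and 30.7 in MPP2 cultures (ethanol, then 4OHT). Its 4OHT ratios were 1.19 (0.969 to 1.47) and 1.12 (0.97 to 1.3), within counting error of 1. Lpcat3, an LXR target that builds polyunsaturated chains into membrane phospholipids, stood at 146, 126, 148 and 141, with ratios of 0.863 (0.809 to 0.919) and 0.955 (0.895 to 1.02). Its annotated span overlaps that of Emg1 on the other strand. The kit keeps strand, but no source used here says whether the counting did. Soat1, which esterifies cholesterol for storage and so works against export, stood at 286, 321, 264 and 323. Both 4OHT libraries were above both ethanol libraries by small ratios, 1.12 (1.08 to 1.17) and 1.22 (1.17 to 1.28). Over the 9 genes tested, both 4OHT libraries were above both ethanol libraries for Nr1h3 and Soat1 (2 of 9, against 12.2% of all genes) and below them for Lpcat3 (1 of 9, against 14.3%).

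**Figure D2:**
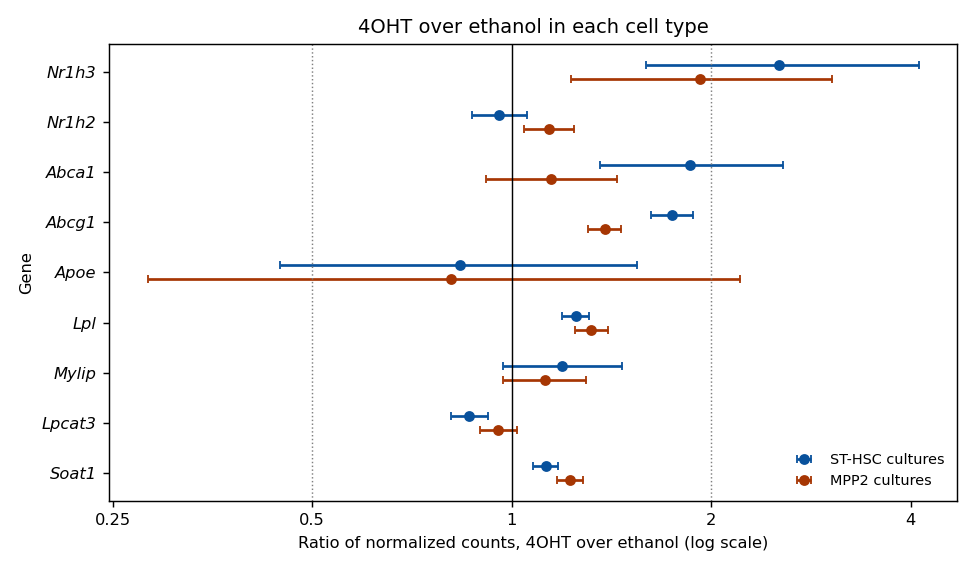
Ratio of normalized counts, 4OHT over ethanol (log axis), for the 9 genes that passed the filter, with exact 95% counting intervals. Blue is ST-HSC and brown MPP2 cultures, and dotted lines mark 2-fold. Nr1h3 lies furthest to the right in both, at 2.53 and 1.92, and the interval of Abca1 reaches below 1 only in MPP2 cultures.

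Monocyte and macrophage markers were also higher with 4OHT, and LXR alpha and both pumps are known to be highly expressed in macrophages. All 11 tested markers were above 0 in ST-HSC cultures and 9 of 11 in MPP2 cultures, with median log2 differences of 0.75 and 0.71, against -0.004 and -0.002 over all genes. At least 2-fold higher were 3 and 4 of them, against 2.1% and 1.32% of all genes. The summed level of the 13 listed markers went from 2311 to 3398 in ST-HSC cultures, a ratio of 1.47, and from 2982 to 4401 in MPP2 cultures, a ratio of 1.48. Mrc1, the mannose receptor gene, had 30.04, 83.3, 32.6 and 99.2 normalized counts. The exceptions in MPP2 cultures, named after their values were seen, were Ccr2, a monocyte chemokine receptor gene, with a ratio of 0.583 (0.476 to 0.711), and Cd14, a coreceptor for bacterial lipopolysaccharide, with 0.961 (0.888 to 1.04). Genes of other cells also differed. Of 8 stem and progenitor genes, 4 (Cd34, Meis1, Procr and Ly6a) were at least 2-fold higher in ST-HSC cultures. In MPP2 cultures 0 of 8 were, with the same shares of all genes as above. Of neutrophil genes, 11 of 12 were below 0 in ST-HSC cultures and 4 of 12 in MPP2 cultures, while 49.3% and 49.71% of all genes were above 0. At least 2-fold lower were 4 of 11 mast cell and basophil genes in ST-HSC and 8 of 11 in MPP2 cultures. So were 1 of 7 erythroid genes in ST-HSC and 6 of 7 in MPP2 cultures. The shares of all genes were 0.545% in ST-HSC and 1.7% in MPP2 cultures. Hba-a2, Hbb-b1 and Slc4a1 had 0 reads in both ST-HSC libraries and could not be lower there. They passed the filter only through MPP2 with ethanol, so their fall in MPP2 cultures is not a separate result. These erythroid counts therefore cannot be compared between the cell types. Of the monocyte and macrophage markers, C1qb had a library at 0 reads. The part of any of these cells in the differences of Nr1h3, Abca1 and Abcg1 was not tested. In libraries of whole cultures, more cells of a type and more RNA per cell cannot be told apart.

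A 4OHT effect common to both cell types was sought with limma, with terms for treatment and for cell type. The spread is then the disagreement between the cell types, drawn by limma toward a value common to all genes tested. With Benjamini-Hochberg adjustment over 11370 genes, 0 of the 9 genes passed 0.05, against 0.044% of all genes higher and 0.0088% lower. Without adjustment 4 of 9 had p under 0.05 (Nr1h3, Abcg1, Lpl and Abca1), against 14.2% of all genes. Nr1h3 had a shared log2 difference of 0.98 ± 0.15 (SE, limma adjusted p = 0.0925), higher in both pairs of libraries. Abcg1 had 0.63 ± 0.15 (limma adjusted p = 0.184), Abca1 0.51 ± 0.19 (limma adjusted p = 0.34) and Lpl 0.36 ± 0.13 (limma adjusted p = 0.316), each also higher in both pairs. The median over the 9 genes was 0.23, against -0.004 over all genes. The call depended on the tool. Abcg1 passed with limma with a mean-variance trend (adjusted p = 0.00397), with edgeR's quasi-likelihood test on recovered reads (adjusted p = 0.0115) and with DESeq2 (adjusted p = 0.00904), and Nr1h3 passed with the trend alone (adjusted p = 0.0416).

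More genes passed for the difference between MPP2 and ST-HSC cultures, shared over both treatments, among the 9 and among all genes. Of all genes, 1727 were called, against 6 for 4OHT. Without adjustment 6 of the 9 had a limma p under 0.05, against 37.7% of all genes. With adjustment, Mylip, Abca1 and Abcg1 were higher in MPP2 cultures and Apoe was lower. Thus 3 of 9 passed in the upward direction, against 9.88% of all genes, and 1 of 9 downward, against 5.31%. Higher genes were 65.03% of all genes called. This share moved with the setting, to 80.19% with a GC trend removed and 87.66% without a filter, and to 54.1% with edgeR, 50.49% with limma with trend and 48.69% with a mean of at least 5. The log2 difference was 1.09 ± 0.13 for Mylip (SE, limma adjusted p = 0.0148), 0.93 ± 0.19 for Abca1 (limma adjusted p = 0.0409), 0.77 ± 0.15 for Abcg1 (limma adjusted p = 0.0367) and -0.83 ± 0.13 for Apoe (limma adjusted p = 0.0251). Each held its direction in both treatments. Lpl, at -0.45 ± 0.13 (limma adjusted p = 0.0733), and Nr1h2, at 0.40 ± 0.14 (limma adjusted p = 0.106), missed the threshold. Lpl passed under 4 alternatives: a mean of at least 5, limma with trend, edgeR and DESeq2 (adjusted p from 0.00474 to 0.0341). Nr1h2 passed under 2, limma with trend (adjusted p = 0.0159) and edgeR (adjusted p = 0.0189). Nr1h3, Lpcat3 and Soat1 had 0.11, 0.09 and -0.05. Mylip passed under all 10 alternative settings, with adjusted p from 7.83e-05 to 0.0401. Abca1 was lost under 6 of them (up to 0.0856), Abcg1 under 4 (up to 0.0717) and Apoe, with 8 to 26 reads per library, under 3 of the 8 that gave it a value (up to 0.079).

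Within treatments, the MPP2 to ST-HSC ratio of Abca1 was 2.53 (1.88 to 3.44) with ethanol and 1.56 (1.22 to 2) with 4OHT. For Abcg1 it was 1.92 (1.79 to 2.06) and 1.52 (1.43 to 1.61), and for Mylip 2.24 (1.87 to 2.69) and 2.11 (1.77 to 2.51). At least 2-fold higher in MPP2 cultures were Abca1 and Mylip with ethanol (2 of 9, against 6.27% of all genes) and Mylip with 4OHT (1 of 9, against 5.39%). These counts are on log2 values after adding 0.5, on which none of the 9 was at least 2-fold lower, against 0.862% and 1.71% of all. The plain ratios of Apoe were below that line, at 0.439 (0.196 to 0.919) with ethanol and 0.425 (0.163 to 0.999) with 4OHT, and with an added constant of 0.1 it passed in both treatments (log2 -1.09 and -1.12). These comparisons use the same libraries as those of 4OHT with ethanol. Over both treatments 4 of 9 genes (Abca1, Abcg1, Nr1h2 and Mylip) had both MPP2 libraries above both ST-HSC libraries, against 28.8% of all genes, and 2 of 9 (Apoe and Lpl) had them below, against 33.7%. Mast cell and erythroid genes also differed between the cell types, with summed levels 7.53 and 52.6 times as high in MPP2 as in ST-HSC cultures with ethanol. By limma, 10 of 11 mast cell and basophil genes and 3 of 7 erythroid genes were higher in MPP2 cultures. Some of these, such as Tpsb2 and Hba-a1, passed the filter only through their MPP2 levels. Of 11 monocyte and macrophage markers, 3 were higher (Cd68, Cd14 and Lyz2), and of 12 neutrophil genes 6 were higher and 4 lower. The shares of all genes were 9.88% higher and 5.31% lower. The part of these markers in the differences of the pumps and Mylip was not tested.

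**Figure D3:**
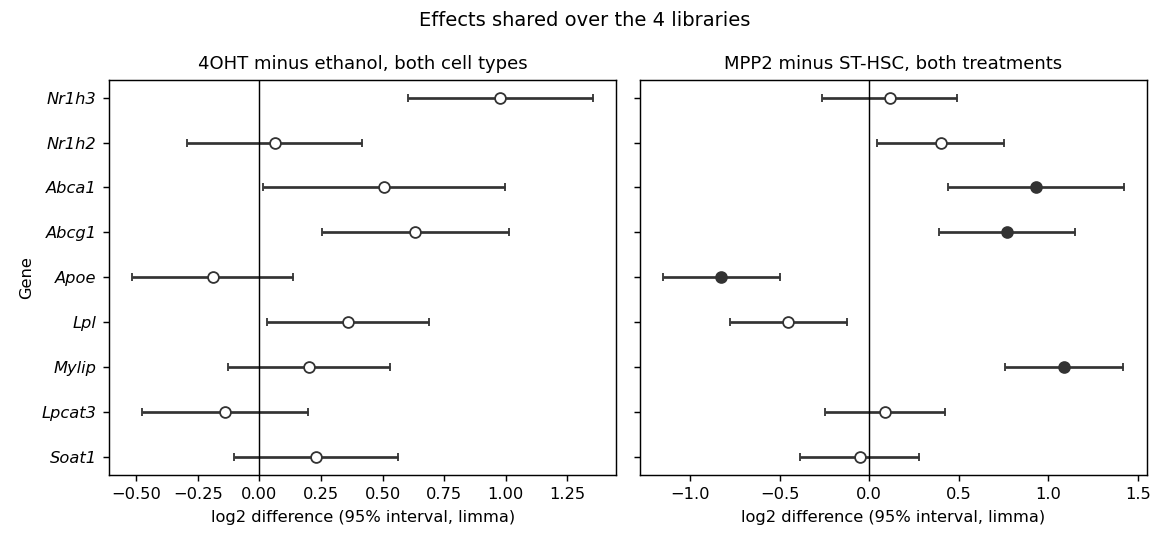
Log2 differences shared over the 4 libraries with 95% limma intervals, for 4OHT minus ethanol (left) and MPP2 minus ST-HSC (right). Filled points have an adjusted p under 0.05. On the left no point is filled, and on the right Mylip, Abca1, Abcg1 and Apoe are, at 1.09, 0.93, 0.77 and -0.83.

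The partners of the LXRs showed small differences. Of 13 genes for retinoid X receptors, corepressors and coactivators, 0 passed 2-fold with 4OHT in either cell type, and the median log2 difference was -0.03 in both. Of all genes, 2.1% were higher and 0.545% lower in ST-HSC cultures, and 1.32% and 1.7% in MPP2 cultures. Rxra, the RXR alpha partner, had the largest difference of these genes and ordered the libraries much like the pumps, at 11.3, 21.0, 21.4 and 30.3 normalized counts (log2 0.86 in ST-HSC and 0.50 in MPP2 cultures, shared effect limma adjusted p = 0.172). Its cell type difference was 0.70 (limma adjusted p = 0.044). Rxrb, the RXR beta gene, was near level with 4OHT, with ratios of 1.11 and 1.02. The corepressor gene Ncor1 had 283, 209, 270.2 and 232, and its partner Tbl1xr1 had 262, 223, 263 and 215. Nrip1, a nuclear receptor corepressor, went in opposite directions, at log2 0.48 and -0.49.

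Other LXR targets did not move as 1 group. In ST-HSC cultures 6 of 16 were above 0 (median log2 -0.11) and in MPP2 cultures 7 of 16 (median -0.19). Among all genes 49.3% and 49.71% were above 0, with medians of -0.004 and -0.002. Scd1, the stearoyl-CoA desaturase, had 282, 117, 268 and 137 normalized counts (log2 -1.26 and -0.97, shared effect limma adjusted p = 0.0843). Scd2, a related desaturase, had 2586, 1971, 2184 and 1739. Fasn had 1617, 1404, 1337 and 1428, lower with 4OHT in ST-HSC cultures and higher in MPP2 cultures. The dead-cell receptor gene Mertk, which is also in the macrophage list, had 0.695, 3.16, 1.8 and 3.69 (log2 1.62 and 0.86). Mertk and Scd1 were the 2 of 16 past 2-fold in ST-HSC cultures, in opposite directions, and 0 of 16 passed in MPP2 cultures. The shares of all genes in ST-HSC cultures were 2.1% higher and 0.545% lower, and in MPP2 cultures 1.32% and 1.7%. With limma 0 of 16 passed for the shared 4OHT effect, against 0.044% of all genes higher and 0.0088% lower. Apoc1 and Cd5l were not among the genes analysed here.

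Ch25h makes 25-hydroxycholesterol, an LXR ligand and a known interferon-response gene. It stood at 2.09, 6.47, 6.13 and 10.2 normalized counts. The ratios were 3.1 (2.03 to 4.86) and 1.66 (1.25 to 2.21), so the libraries again had the order of the pumps apart from ST-HSC with 4OHT and MPP2 with ethanol, which lay together. The shared 4OHT effect was log2 1.06 (limma adjusted p = 0.139) and the cell type difference 0.99 (limma adjusted p = 0.0433). Hsd3b7, an enzyme of bile acid synthesis that acts on oxysterols, was near level at 14.4, 12.9, 16.4 and 15.8. Cyp27a1, which makes 27-hydroxycholesterol, had 1 to 9 reads per library.

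Genes that bring cholesterol in were mixed. Of 15 for uptake, lysosomal release and storage, 9 were above 0 with 4OHT in ST-HSC cultures (median log2 0.20) and 11 in MPP2 cultures (median 0.12). Among all genes 49.3% and 49.71% were above 0, with medians of -0.004 and -0.002. The scavenger receptor genes Cd36 and Msr1 were past 2-fold in ST-HSC cultures. Cd36 had 0.765, 6.9, 5.12 and 7.94 normalized counts and Msr1 11.96, 30.2, 23.3 and 24.95. Lrp1, a receptor for APOE-bearing particles, was the 1 past 2-fold in MPP2 cultures, from 169.6 to 391, and went from 158 to 268 in ST-HSC cultures. At least 2-fold higher were 2.1% of all genes in ST-HSC and 1.32% in MPP2 cultures. The HDL receptor gene Scarb1 was near level at 317.5, 282, 257 and 279. With limma 0 of 15 passed for the shared 4OHT effect, against 0.044% of all genes higher and 0.0088% lower.

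Sterol synthesis enzymes were on the other side of 0. All 20 were below 0 with 4OHT in ST-HSC cultures (median log2 -0.54) and 18 of 20 in MPP2 cultures (median -0.30), against medians of -0.004 and -0.002 over all genes. Past 2-fold was 1 of them, Tm7sf2, a sterol reductase, from 24.8 to 11.9 in ST-HSC cultures, where 0.545% of all genes were as much lower. Nsdhl, a sterol dehydrogenase, had 89.4, 50.6, 94.95 and 61.6, and the abundant Fdps, which makes farnesyl pyrophosphate, had 1014, 708, 990.4 and 914. With limma 0 of 20 passed for the shared effect, against 0.044% of all genes higher and 0.0088% lower, while 18 of 20 had a shared difference below 0. Of the partners of lipoprotein lipase, 4 of 8 were tested and 0 passed 2-fold with 4OHT. Of all genes, 2.1% were higher and 0.545% lower by that much in ST-HSC cultures, and 1.32% and 1.7% in MPP2 cultures. Among them Sel1l, which helps the lipase mature, had 212, 213, 199 and 230.2, and Angptl4, its inhibitor, 14.3, 16.5, 10.4 and 9.55. Gpihbp1, the capillary anchor of the lipase, was not analysed here. Lmf1, which folds the lipase, differed with 4OHT by log2 -0.36 in ST-HSC cultures and by 0.01 in those from MPP2 cells. Angptl4 had 0.21 and -0.12 and Apoc2, the activator of the lipase, 0.21 and 0.52, all 4 within counting error of 0.

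**Figure D4:**
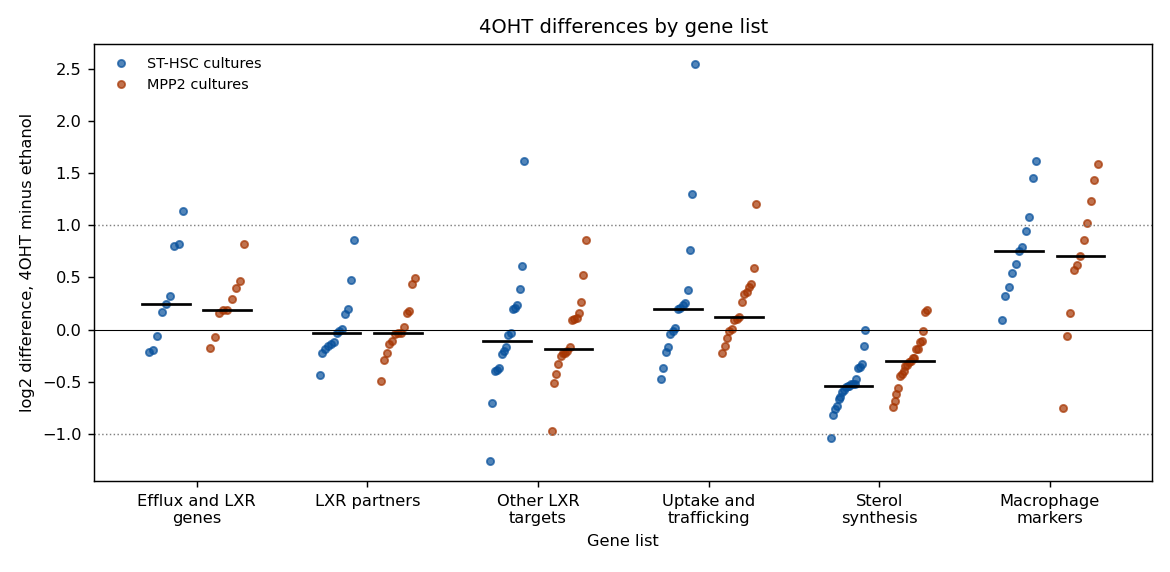
Log2 differences, 4OHT minus ethanol, of each tested gene in 6 gene lists, with ST-HSC cultures in blue and MPP2 cultures in brown. Bars are list medians and dotted lines mark 2-fold. Medians of the efflux and LXR genes are 0.24 and 0.19, those of sterol synthesis -0.54 and -0.30, and those of macrophage markers 0.75 and 0.71.

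Genes whose pattern over the 4 libraries was most like that of a member were named for the 3 members with the widest range of log2 values after adding 0.5, Abca1, Abcg1 and Mylip. In plain ratios of the highest to the lowest library, Apoe (2.82) and Nr1h3 (2.53) ranged wider than Mylip (2.51). Likeness was the root mean square distance between mean-centred log2 profiles, among 8165 (8166 for Abca1) genes with a mean of at least 10. Nearest to Abca1 were Mpeg1, a macrophage perforin gene, at a distance of 0.02 (128, 232, 308 and 341 normalized counts), the ferritin heavy chain gene Fth1 at 0.03 and the endosomal RNA sensor gene Tlr7 at 0.04. Nearest to Abcg1 were the lamin gene Lmna at 0.03, Tdrd7 at 0.03 and Mreg at 0.04. Nearest to Mylip were Dopey2 at 0.01, Tmem86a at 0.03 and Slc31a2, a copper transporter gene, at 0.04. Mpeg1 was lowest in ST-HSC with ethanol and highest in MPP2 with 4OHT, as Abca1 was, but it was selected for that likeness. The shared order of the libraries is therefore not a separate result. Each profile has only 4 values and many genes were compared. Whether distances this small are unusual was not tested, and neither was any shared control of these genes.

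Levels per kilobase of exon allow the genes to be set in order. The mean over the 4 libraries was 61.4 normalized counts per kilobase for Lpcat3, 52.3 for Lpl, 35.6 for Soat1, 35 for Nr1h2 and 22.3 for Abcg1. It was 6.57 for Mylip, 1.58 for Nr1h3, 0.899 for Abca1, 0.646 for Apoe and 0.0636 for Pltp. Membrane remodelling, lipase and storage genes and LXR beta thus stood above the pumps in this mean, and Apoe and Pltp were lowest. Neighbours in this order changed places between libraries: Lpl was above Lpcat3 in ST-HSC with 4OHT (66.98 against 55.2), Nr1h2 was above Soat1 in both MPP2 libraries, and Apoe was above Abca1 in both ST-HSC libraries and above Nr1h3 in ST-HSC with ethanol (0.984 against 0.874). The share of a member's 31-base sequences found in another gene was at most 3.24% (Lpl).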

How the data were processed

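The table gives 4 columns of normalized counts, 1 per library. The deposited values are a signal: divided by the step of its column, each of the 57292 gives a whole read count (100% within 1e-06 reads), and they equal CPM on TMM-scaled library sizes. The build mm10 and the tools Bowtie2, RSEM, edgeR and Trimmomatic 0.36 are named, without order or role, per the submitters' processing notes. Every listed gene has at least 4 reads over the libraries. Per the labels' protocols, 200 ng of total RNA was depleted of rRNA and made into strand-specific libraries with MGIEasy kits.

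The 11370 genes whose mean reached 1 normalized count were tested on log2 values after adding 0.5, a scale that understates changes of low genes. The additive limma model had 3 coefficients over 4 libraries. Pairs of libraries carry no test, and p-values measure only the spread between these libraries, which may be technical. Because limma draws the variance of each gene toward a value common to all genes tested, SEs and p-values are not of that gene's spread alone. For a gene of few reads, such as Apoe, the SE can be smaller than the counting error. Called means at least 2-fold, or an adjusted p under 0.05. The members and the 11 other gene lists were chosen with earlier results of these data known. List genes were named by level (2 per list), by 4OHT difference (2 per list) and when past 2-fold in both cell types, and Rxrb, Cyp27a1, Lrp1 and the genes under other observations were added after their values were seen. Values of some list genes are not reported here. Exon lengths and coordinates are from GENCODE M21 (GRCm38, the assembly of mm10), promoters from RefSeq. Alternatives were other added constants, filters, scalings and tools. Removal of a GC trend in 20 bins was added after the data were seen. The limma step was run on simulated reads with known 4OHT changes, the same in both cell types and with no cell type difference. That run checked the code and not how often calls in these data are wrong. Models ran in limma 3.58.1, DESeq2 1.42.0 and edgeR 4.0.16 under R 4.3.3. Intervals used scipy 1.17.1 and figures matplotlib 3.10.9, under Python 3.11.15.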

Additional observations from a re-analysis of the deposited data

How the results depend on the processing

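For the shared 4OHT effect, the number of the 9 genes called was 0 as reported, 2 with limma with trend, 1 with edgeR quasi-likelihood and 1 with DESeq2 on reads. All genes called numbered 6 as reported. They were 0 with an added constant of 0.1, without a filter, with CPM on total reads, with DESeq2 size factors and with the GC trend removed. They were 92 with a constant of 1, 230 with a mean of at least 5, 598 with trend, 492 with edgeR and 157 with DESeq2. For the shared cell type difference, 4 of the 9 were called as reported, 2 with a constant of 0.1, 1 without a filter, 2 with CPM on total reads and 2 with the GC trend removed, but 5 with limma with trend, 5 with edgeR (both adding Lpl and Nr1h2 and losing Apoe) and 3 with DESeq2 on reads. All genes called were 1727 as reported, 852 with a constant of 0.1, 559 without a filter, 2719 with a mean of at least 5, 3761 with trend, 3462 with edgeR and 843 with the GC trend removed. Of single comparisons, the count of members past 2-fold in ST-HSC cultures went from 1 to 0 with a constant of 1 (Nr1h3 then at log2 0.997) and with a mean of at least 5, which leaves Nr1h3 out. That for the cell types under 4OHT went from 1 to 2 with a constant of 0.1 (adding Apoe, lower) and to 0 with CPM on total reads, and that in ethanol from 2 to 3 with a constant of 0.1 (adding Apoe, lower) and to 3 with the GC trend removed (adding Abcg1). With a mean of at least 5, which tests fewer genes, genes past 2-fold went from 301 to 155 in ST-HSC, from 343 to 162 in MPP2, from 811 to 461 between cell types in ethanol and from 807 to 483 under 4OHT. With the GC trend removed, the near-level shared 4OHT difference of Nr1h2 went from 0.06 to -0.0535 and the cell type difference of Soat1 from -0.05 to 0.0119. The cause was not tested. Of 418 values of single genes under alternatives, 382 kept their direction and side of the threshold, or stayed within counting error. No library was left out, since each group has 1, and no replicate block was fitted, since the labels number no replicates. The limma model itself compares the treatments within cell types. Apoe and Pltp, at 0 to 26 reads, are limited by depth.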

Other observations

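Some genes of this pathway outside the 10 went in opposite directions with 4OHT in the cell types. They were picked after their values were seen, and with 1 library per group the difference was not tested. Abca7, a close relative of Abca1, went from 175 to 136 normalized counts in ST-HSC cultures (ratio 0.775, 95% counting interval 0.729 to 0.822) and from 184 to 234 in MPP2 cultures (1.27, 1.2 to 1.34). Srebf1 had ratios of 0.889 (0.841 to 0.939) and 1.12 (1.05 to 1.18), and its target Fasn 0.868 (0.852 to 0.885) and 1.07 (1.05 to 1.09). Acsl3, the remaining gene with a relaxed DR4 match, was lower in both, at 0.774 (0.674 to 0.887) and 0.696 (0.594 to 0.813). The lysosomal exporter genes Npc1 (ratios 1.18 and 1.21) and Npc2 (1.15 and 1.07) and the acid lipase gene Lipa (1.3 and 1.32), which release cholesterol from lysosomes, were a little higher in both. Plin2, which coats lipid droplets, was near level (0.969 and 0.943).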
